A study of Mus musculus with 4 samples.

Results

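Ifi203, Ifi204, Ifi207, Ifi209 and Mndal are 5 of the 18695 genes counted in single cells of mouse bone marrow, and belong to the Ifi200 family of interferon-inducible genes. They were taken by name from the raw counts, and their levels were read in each library within cell types gated on marker genes, with monocytic progenitors at the centre. In control cells Ifi209 was 17.7-fold higher in monocytic than in granulocytic progenitors of the GMP sort, against 2.62-fold for Ifi203 and 2.17-fold for Mndal. Ifi211, another gene of the family, was 12.6-fold higher there. In Tet2 KO monocytic progenitors Ifi209 was lower than in controls in both sorts, 69.7 against 95.2 CPM (UMI counts divided by the total and scaled to 1000000) and 54.7 against 84.1 CPM. Ifi203 was higher in the Tet2 KO in both sorts, and Mndal, Ifi204 and Ifi207 differed less or were counted too sparsely to give a direction in both sorts.

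The study asked how loss of Tet2, an enzyme that oxidises methylated cytosine in DNA, acts on myeloid progenitors. Each of the 4 libraries was the only one of its kind, from 2 genotypes and 2 sorts. Controls (WT) were Tet2 fl/fl littermates that lacked Mx1-Cre, and Tet2 KO mice carried Mx1-Cre together with Tet2 fl/fl, so that both groups carried the floxed alleles. All mice were injected with pI:pC (4 doses, each of 12.5 ug/g), a synthetic double-stranded RNA that elicits interferon. Mx1-Cre is itself driven by an interferon-responsive promoter, and Cre is active in many tissues besides the marrow. The ages in the study's methods are those of young adult mice. Neither the interval between pI:pC and the harvest of the sequenced cells nor the age at harvest was given in the sources used here. The GMP sort took granulocyte-monocyte progenitors, cells positive for CD34, CD16/32 and cKit and negative for Sca1 and lineage markers. The Lin-/CD11b+ sort took lineage-negative progenitors together with CD11b+ myeloid cells. The deposited cell table assigned both sorts of a genotype to the same 1 mouse, so the sorts repeat the staining and the library but not the animal. With 1 mouse per genotype no difference could be tested against the spread between animals. All intervals given are exact 95% intervals for counting error only, and genotype, mouse and library cannot be told apart.

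Ifi200 proteins, named PYHIN proteins for their domains, typically join an N-terminal pyrin domain, which binds other pyrin domains, to 1 or more HIN domains, which bind double-stranded DNA. The family includes sensors of cytosolic DNA such as AIM2, which assembles an inflammasome, and p204, the product of Ifi204, which has been linked to interferon induction through STING and to macrophage differentiation. Mndal is named for its likeness to the human myeloid cell nuclear differentiation antigen, MNDA, and its product restrains cell growth. Ifi207 has been linked to transcription of inflammatory cytokines in macrophages. Many genes of the family carry interferon-stimulated response elements and are raised by type I interferon.

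The members lie within 311756 bases of mouse chromosome 1. In the GRCm38 assembly (GENCODE vM21) Ifi209 spans chr1:173630917-173647928 on the plus strand, Ifi207 spans chr1:173723427-173741747, Ifi204 spans chr1:173747293-173766943, Mndal spans chr1:173849126-173942491 and Ifi203 spans chr1:173920407-173942672, all but Ifi209 on the minus strand. In that annotation Mndal overlaps Ifi203 and Ifi211 on the same strand, whereas RefSeq places Mndal at chr1:173857215-173880382 with no overlap. Promoters were read from RefSeq on GRCm38.p6 for 4 of the members and for Ifi211, the relative nearest to Mndal. They are shown so that the letters can be read beside the levels of each member, with no cause drawn from them. Each window is 30 bases, 5′ to 3′ on the gene's strand, and capitals mark the 12-base stretch that resembles an interferon-stimulated response element.
Ifi203: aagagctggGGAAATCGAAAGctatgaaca
Mndal: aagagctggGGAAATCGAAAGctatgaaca
Ifi207: cctagccagGGAAATCGAAAAttaagaaca
Ifi209: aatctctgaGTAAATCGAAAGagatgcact
Ifi211: caaagccagGGAAATTGAAAGctatgaacg

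The Ifi203 window (chr1:173942508-173942537, minus strand) and the Mndal window (chr1:173880204-173880233, minus strand) were identical over all 30 bases. Their promoters matched at 282 of 289 aligned bases, or 97.6%, while the Ifi209 promoter matched that of Ifi203 at 68.5% of 251 aligned bases. Counting positions from 1 at the 5′ end of the stretch and naming the base of Ifi203 first, Ifi209 (chr1:173630770-173630799, plus strand) differed by G2T, Ifi207 (chr1:173741831-173741860, minus strand) by G12A and Ifi211 (chr1:173913064-173913093, minus strand) by C7T. The stretch began 36 bases before the annotated start in Ifi203, 37 in Mndal, 38 in Ifi211, 42 in Ifi207 and 80 in Ifi209. RefSeq gives 2 starts each for Ifi203 and Mndal, and these windows and distances belong to the start with the match, while the promoter window of the other start differed from the stretch by over 3 bases in both genes. The stretch and the shorter patterns below were taken from the Ifi203 promoter, so Ifi203 matches them by construction. On either strand the full stretch GGAAATCGAAAG was found in 6 of 32841 RefSeq promoters of 300 bases, and all 6 belonged to the family (Ifi203, Ifi206, Ifi208, Ifi213, Ifi214 and Mndal). Its inner part AAATCGAAA, which lies inside the full stretch and is shared by Ifi209 and Ifi207, was found in 41 promoters, or 0.125%. The looser GAAANNGAAA, which overlaps both, was found in 3.44% of promoters and in 9 of the 12 family genes with a promoter, but not in that of Ifi209. These are matches of letters, and no binding was measured here.

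The libraries held 8969 cells, of which 1258 were WT GMP, 2719 Tet2 KO GMP, 1924 WT Lin-/CD11b+ and 3068 Tet2 KO Lin-/CD11b+ cells. Totals ranged from 22681380 to 42561110 unique molecular identifiers (UMIs) per library, and median depth from 10417 to 18713 UMIs per cell. Every cell had at least 5003 UMIs, and 37 barcodes were found in 2 libraries each. In a supplementary file of the study the cell numbers of the Tet2 KO GMP and WT Lin-/CD11b+ libraries are exchanged against the deposited cell table. The deposited assignment was used, under which the Tet2 KO GMP library held no lymphoid-like cell. Monocytic progenitor-like cells had at least 10 UMIs of Mpo per 10000, at least 4 per 10000 summed over Ly86, Csf1r, Klf4, F13a1, Ccr2 and Fn1 (the monocytic score) and no UMI of Cebpe, a regulator of granulocyte maturation. In the GMP sort the gate held 384 WT and 733 Tet2 KO cells, in the Lin-/CD11b+ sort 240 WT and 288 Tet2 KO cells, and it is a range cut from a score rather than a discrete type. Within it, 37, 142, 22 and 50 cells of those 4 libraries scored between 4 and 5, and 52, 158, 27 and 49 Mpo-positive cells scored between 3 and 4, just outside. A further 112, 265, 55 and 76 cells reached the score but carried Cebpe and were left out. None of the gates used an Ifi200 gene. Even so, Ifi209 was among the 5 genes with the highest fold in monocytic progenitor-like cells over other cells, at 2.05-fold, beside the gate gene F13a1. Tet2 itself was counted at 13.02 and 17.0 CPM in the WT and Tet2 KO GMP libraries and at 13.4 and 20.7 CPM in the Lin-/CD11b+ libraries. These 3′ counts lie outside the deleted part of the gene and do not check the genotype.

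Across WT cell types the members fell into 3 patterns. Ifi209 was high in monocytic and dendritic cells and low elsewhere: 107 CPM in monocyte-like cells, 95.2 and 84.1 CPM in monocytic progenitors of the GMP and Lin-/CD11b+ sorts, and 78.5 CPM in dendritic-like cells. Each of these 4 levels overlapped the next in its interval, and all stood apart from the next level, 14.7 CPM in lymphoid-like cells. Stem and progenitor (HSPC)-like cells had 5.38 CPM, and granulocytic progenitors had 5.36 and 4.11 CPM. The level in monocytic progenitors was 17.7-fold that of granulocytic progenitors in the GMP sort (interval 13.4 to 23.9), 20.4-fold in the Lin-/CD11b+ sort (11.99 to 37.8) and 15.6-fold that of HSPC-like cells (8.13 to 34.5). From monocytic progenitors to monocyte-like cells of the Lin-/CD11b+ sort the level differed by only 1.28-fold (1.09 to 1.49). Ifi209 was thus already near its monocyte level in the WT progenitors.

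Ifi203 and Mndal, the pair with near-identical promoters, were counted in every cell type. Ifi203 was highest in dendritic-like cells at 196 CPM, followed by monocyte-like cells at 114 CPM and HSPC-like cells at 103 CPM. Its levels in monocytic progenitors, 50.7 and 54.6 CPM, were 0.529 times the HSPC level in the Lin-/CD11b+ sort and 2.62-fold (2.19 to 3.15) the granulocytic level in the GMP sort. Mndal followed the same order at the top, with 185 CPM in dendritic-like, 123 CPM in monocyte-like and 108 CPM in HSPC-like cells. In monocytic progenitors it had 74.1 and 90.4 CPM, against 34.2 and 33.8 CPM in granulocytic progenitors. For both genes the dendritic level stood apart from the next, and most neighbours further down the order overlapped. The 3′ ends do not separate every relative: of the 50-base words in the last 500 transcript bases, 18.7% of those of Mndal and 1.11% of those of Ifi203 also occurred in another gene.

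Ifi204 and Ifi207 had their highest level in monocyte-like cells. Ifi204 had 40.5 CPM in monocyte-like cells, 4.57-fold (3.08 to 6.97) its level of 8.87 CPM in monocytic progenitors of the same sort, and 5.45 CPM in those of the GMP sort. Neutrophil-like cells came next after monocyte-like cells at 12.9 CPM, with an interval that overlapped that of the monocytic progenitors. Ifi204 in monocytic progenitors was 4.89-fold (2.45 to 10.6) the granulocytic level in the GMP sort. In the other sort it was 10.1-fold (3.14 to 51.4), over 3 UMIs in granulocytic progenitors. No UMI was counted in 156 HSPC-like cells, which places the monocyte level at least 22.6-fold higher when the floor is 3 counts over the HSPC-like cells. Ifi207 had 29.1 CPM in monocyte-like cells, 12.7-fold (6.23 to 30.3) its 2.29 CPM in monocytic progenitors, 18.5 CPM in dendritic-like cells and 7.49 CPM in neutrophil-like cells. It was at 0 in HSPC-like, early Mpo+ and granulocytic progenitor-like cells of both WT sorts where those types were counted. In monocytic progenitors Ifi207 rested on 9 and 8 UMIs, too few to place it. The 5 members summed reached 227 and 240 CPM in monocytic progenitors, against 60.0 and 63.2 CPM in granulocytic progenitors, 217 CPM in HSPC-like cells and 415 CPM in monocyte-like cells.

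**Figure D1:**
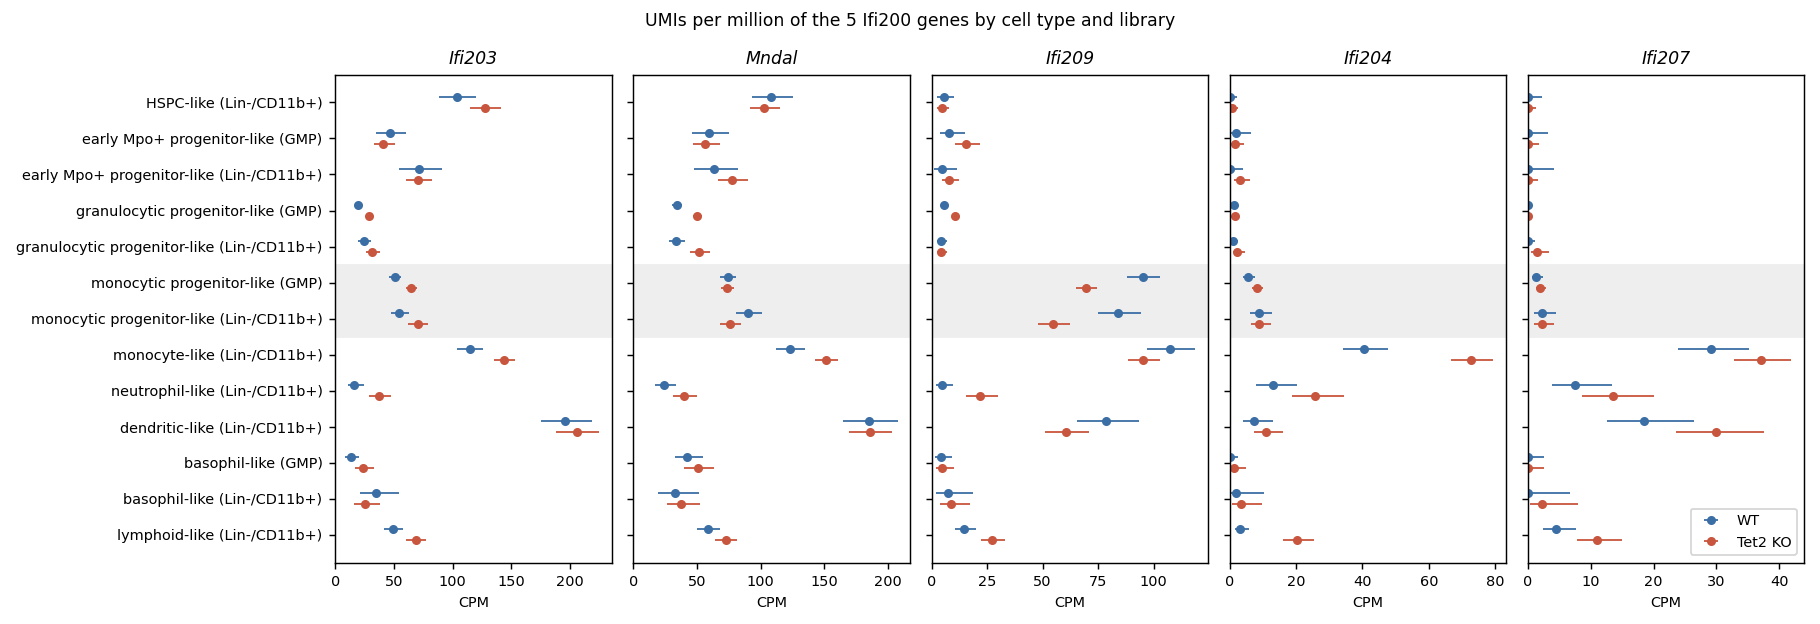
Levels of the 5 members in each cell type, as CPM on linear axes that differ between genes, with WT in blue, Tet2 KO in red, monocytic progenitors shaded and exact 95% Poisson intervals that cover counting error only. Ifi209 stands high in monocytic progenitor-like, monocyte-like and dendritic-like cells (78.5 to 107 CPM in WT) and at or below 14.7 CPM in the other WT types, while Ifi204 and Ifi207 peak in monocyte-like cells.

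Between the genotypes, monocytic progenitors of the GMP sort showed Ifi209 lower and Ifi203 higher in the Tet2 KO, with a summed level that hardly differed. Ifi209 was counted 664 times in WT and 834 times in Tet2 KO cells, giving 95.2 and 69.7 CPM, a log2 ratio of -0.45 (interval -0.60 to -0.30) or 1.36-fold lower (1.23 to 1.51). Of the genes tested, 6.85% had a ratio at least as low in that comparison, so the size was not exceptional. Ifi203 had 50.7 CPM in WT and 64.8 CPM in Tet2 KO, a log2 ratio of 0.35 (0.17 to 0.54), and 7.84% of genes were at least as high. Ifi204, the DNA sensor gene, had 5.45 and 8.19 CPM, a log2 ratio of 0.59 (0.04 to 1.17). Mndal had 74.1 and 73.8 CPM, a log2 ratio of -0.01 (-0.16 to 0.15), and Ifi207 had 1.29 and 1.92 CPM with an interval that spanned 0. Summed, the members had 227 and 218 CPM, a log2 ratio of -0.05 (-0.14 to 0.04). None of the 5 members passed 1.5-fold on CPM + 1 in either direction, the size used here to call a difference without replicates. Among all 10294 genes with at least 20 UMIs, 2.23% passed it as higher and 3.37% as lower in the Tet2 KO.

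The Lin-/CD11b+ sort, a second sort from the same mice, gave the same directions for Ifi209 and Ifi203. Ifi209 had 84.1 CPM in WT and 54.7 CPM in Tet2 KO, a log2 ratio of -0.62 (-0.88 to -0.37) or 1.54-fold lower (1.29 to 1.84), with 2.89% of genes at least as low. It was the 1 member of 4 tested that passed the fold, in the direction passed by 3.44% of the 9212 genes tested, against 6.21% in the other. The call lay near the limit: on CPM + 10 Ifi209 was 1.45-fold lower and no longer passed, and the log2 ratio was -0.57 with gates on thinned cells, -0.41 in Leiden clusters, -0.54 at a monocytic score of at least 8 and -0.55 with no Cebpe limit, each under 1.5-fold. Ifi203 had 54.6 and 70.1 CPM, a log2 ratio of 0.36 (0.09 to 0.63), where 15.5% of genes were at least as high. Mndal had 90.4 and 75.9 CPM, a log2 ratio of -0.25 (-0.48 to -0.02). Its interval overlapped that of the GMP sort, and a difference between the sorts was not tested. Ifi204 was level at 8.87 and 8.92 CPM with a wide interval (log2 -0.72 to 0.75), and Ifi207 had 17 UMIs over both libraries and was not tested. The sum was 240 CPM in WT and 212 CPM in Tet2 KO, a log2 ratio of -0.18 (-0.32 to -0.04). Without Ifi209 the summed log2 ratio was 0.18 in the GMP sort and 0.01 in the Lin-/CD11b+ sort, so the sign of the sum depended on that gene. The 3′ end of Ifi209 shares 63.4% of its 50-base words with Ifi214. Ifi214 was counted at 2.58 CPM in WT and 1.34 CPM in Tet2 KO monocytic progenitors of the GMP sort, and how reads common to both were assigned was not tested.

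**Figure D2:**
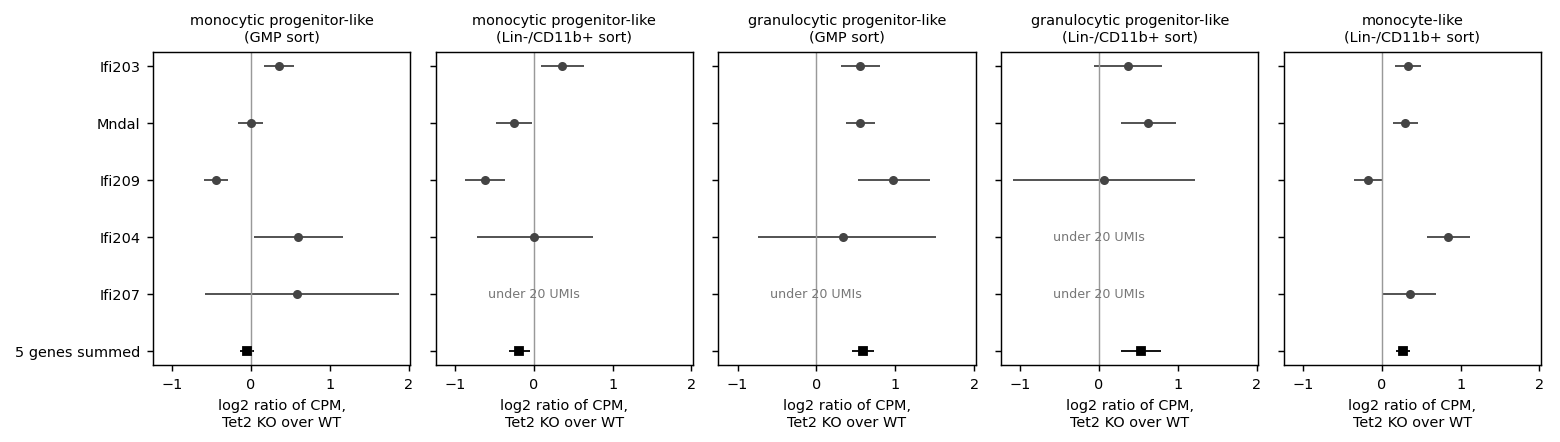
Log2 ratio of Tet2 KO over WT for each member (circles) and for the 5 summed (squares) in monocytic progenitor-like, granulocytic progenitor-like and monocyte-like cells by sort, with exact 95% intervals for counting error, and 0 marking equal CPM. Ifi209 lies below 0 in monocytic progenitor-like cells of both sorts (-0.45 and -0.62) and above 0 in granulocytic progenitor-like cells of the GMP sort (0.97), and Ifi203 lies above 0 in both monocytic progenitor groups.

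Tet2 KO monocytic progenitors had somewhat lower monocytic scores, with medians of 7.76 against 8.95 per 10000 in the GMP sort and 8.27 against 9.30 in the Lin-/CD11b+ sort. The genes of the score differed in direction. In the GMP sort Ly86, Csf1r and F13a1 had log2 ratios of -0.30, -0.20 and -0.15. Those of Klf4, Ccr2 and Fn1 were 0.07, 0.29 and 2.01. In the Lin-/CD11b+ sort Ly86 and F13a1 had -0.53 and -0.08, and Csf1r, Klf4, Ccr2 and Fn1 had 0.05, 0.36, 0.20 and 0.14. Intervals included 0 for Klf4 in the GMP sort and for F13a1, Csf1r and Fn1 in the other. Ifi209 increased along the score in both genotypes. In the GMP sort the 4 score bins had 71.7, 74.2, 110 and 114 CPM in WT from lowest to highest, and 51.6, 63.2, 77.1 and 101 CPM in Tet2 KO. In the Lin-/CD11b+ sort they had 54.1, 72.4, 93.5 and 103 CPM in WT, and 29.7, 53.4, 61.7 and 75.8 CPM in Tet2 KO. A matched score here is a matched sum, since the mix of its genes was not matched. At such a score Ifi209 was lower in the Tet2 KO in 4 of 4 bins of each sort, with log2 ratios from -0.52 to -0.17 and from -0.86 to -0.44, although the interval of the ratio included 0 in the second and the fourth bin of each sort. When the cells were binned by Mpo instead, Ifi209 was again lower in 4 of 4 bins of each sort (-0.63 to -0.29 and -1.35 to -0.41). The interval included 0 in the lowest Mpo bin of the GMP sort and in the second and the fourth of the Lin-/CD11b+ sort. Ifi203 was higher in the Tet2 KO in 4 of 4 bins under both binnings and in both sorts, although the interval included 0 in 11 of these 16 ratios. Mndal had no such regularity, being higher in 2 of 4 score bins in the GMP sort and in 1 of 4 in the Lin-/CD11b+ sort. The bins share cells and mice and were set with the data in view.

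**Figure D3:**
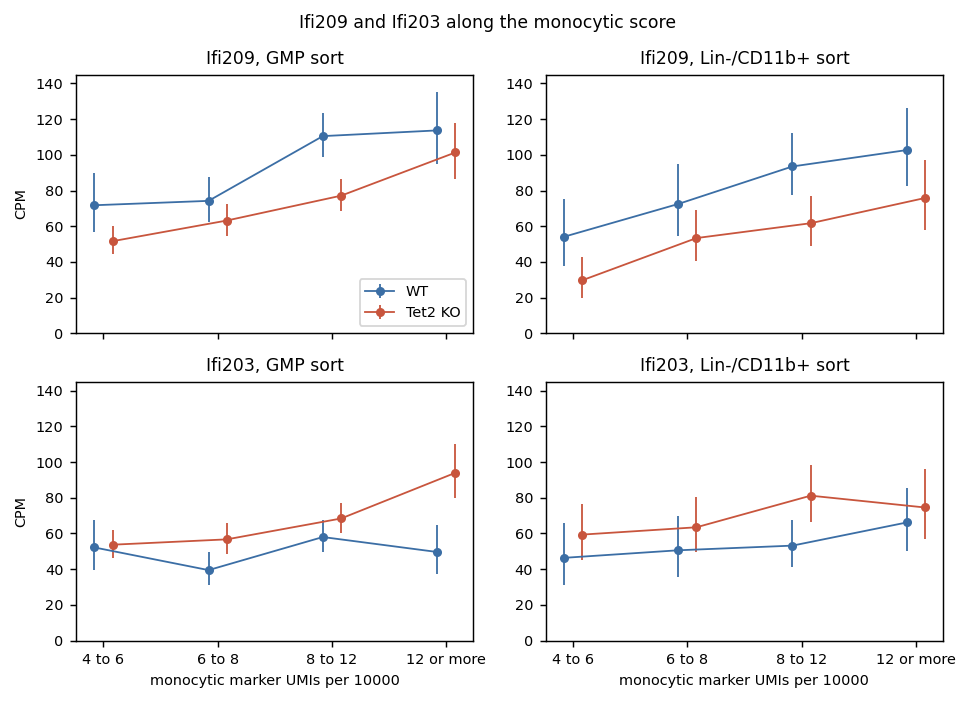
CPM of Ifi209 and Ifi203 in monocytic progenitor-like cells against the bin of monocytic score, in each sort, for WT and Tet2 KO, with exact 95% Poisson intervals. The WT points of Ifi209 lie above the Tet2 KO points in all 4 bins of both sorts, and the points of Ifi203 lie the other way round.

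Markers of other lineages also differed within the gate. The granulocytic markers Cebpe, Gfi1 and Fcnb summed to 7.60 CPM in WT and 20.1 CPM in Tet2 KO of the GMP sort, and to 8.58 and 34.0 CPM in the Lin-/CD11b+ sort. Cebpe was at 0 by the gate and Gfi1 was similar (2.44 and 2.59, then 2.86 and 2.65 CPM), so the difference lay in Fcnb, the gene of ficolin B, at 5.16 against 17.5 CPM and 5.72 against 31.3 CPM. Fcnb was found in 7.29% of WT and 18.8% of Tet2 KO cells of the GMP sort, and in 6.67% and 21.5% of those of the other sort. Cells with a UMI of Gfi1 or Fcnb numbered 44 of 384, 162 of 733, 25 of 240 and 71 of 288 in the 4 libraries. Without them the log2 ratio of Ifi209 was -0.37 in the GMP sort and -0.70 in the Lin-/CD11b+ sort, and that of Ifi203 was 0.36 and 0.42. The basophil markers were lower in the Tet2 KO, at 31.8 against 66.8 CPM and 18.8 against 34.9 CPM, and the HSPC markers were at 69.7 against 102 CPM in the GMP sort and at 90.6 against 102 CPM in the other, where the interval of the log2 ratio (-0.39 to 0.04) included 0. The dendritic markers were at 2.26 against 5.16 CPM in the GMP sort and at 20.5 against 5.43 CPM in the Lin-/CD11b+ sort. The neutrophil markers were at or below 0.573 CPM in the GMP sort, and at 42.4 CPM in Tet2 KO against 65.5 CPM in WT in the other. The lymphoid markers were at or below 5.54 CPM in all 4 libraries. Cells that expressed Gfi1 or Fcnb without a counted UMI stayed in when the others were left out. The part of any of these markers in the Ifi200 differences was not tested.

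Counted per cell, Ifi209 was detected in 72.9% of WT and 58.1% of Tet2 KO monocytic progenitors of the GMP sort, and in 67.9% and 46.2% of those of the Lin-/CD11b+ sort. Median depth in these cells was 18758 and 16428 UMIs in the GMP sort and 14076 and 14009 UMIs in the other, so every cell was also thinned to 5000 UMIs, which left out none. Thinned shares were 37.5% and 28.1% in the GMP sort and 33.3% and 23.6% in the Lin-/CD11b+ sort, in the same order as the CPM. Ifi203 was detected in 51.8% and 58.0% of cells in the GMP sort and in 46.7% and 59.0% in the other, or 21.1% and 25.6%, then 22.9% and 33.3% after thinning. Mndal differed little, at 63.0% and 63.8% in the GMP sort and 64.6% and 65.3% in the other, or 29.7% and 29.1%, then 34.6% and 36.8% after thinning. In the Lin-/CD11b+ sort these Mndal shares were in the opposite order to its CPM, which was 90.4 in WT and 75.9 in Tet2 KO. Ifi204 was found in 8.33% of WT and 11.3% of Tet2 KO cells of the GMP sort, or 2.08% and 3.41% after thinning. As a background, HSPC-like cells gave 0 of 156 in WT, which allows a share of cells with a UMI of up to 1.92% when the floor is 3 cells, and 0.621% in Tet2 KO, at median depths of 9715 and 8104 UMIs. Ifi207 was found in 2.08% and 2.59% of cells of the GMP sort, against none of the HSPC-like cells of either genotype. The UMIs were spread over many cells: the 1% of monocytic progenitors with most UMIs of a gene held between 4.76% and 7.06% of those of Ifi203, Ifi209 and Mndal in the 4 libraries.

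After thinning, 61.7% of WT and 60.8% of Tet2 KO monocytic progenitors of the GMP sort, and 62.5% and 68.1% of those of the Lin-/CD11b+ sort, carried at least 1 UMI of any member. In monocyte-like cells the share was 77.8% in WT and 84.6% in Tet2 KO, and in granulocytic progenitors of the GMP sort 26.7% and 33.0%. The number of different members per cell followed the same order. In the GMP sort 37.5% of WT monocytic progenitors carried 1 member, 19.3% carried 2 and 4.95% carried 3, and none carried more at that depth. In WT monocyte-like cells 27.4% carried 2, 13.2% carried 3 and 4.11% carried 4. Ifi203 was found in 33.3% (24.8 to 42.8) of the WT GMP-sort monocytic progenitors with a Mndal UMI and in 15.9% (11.8 to 20.8) of those without. The corresponding shares were 30.5% and 23.7% in Tet2 KO of that sort, 31.3% and 18.5% in WT of the Lin-/CD11b+ sort and 38.7% and 30.2% in its Tet2 KO. For Ifi209 in WT of the GMP sort the shares were 40.4% with and 36.3% without Mndal. Intervals overlapped in all of these pairs except the first.

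**Figure D4:**
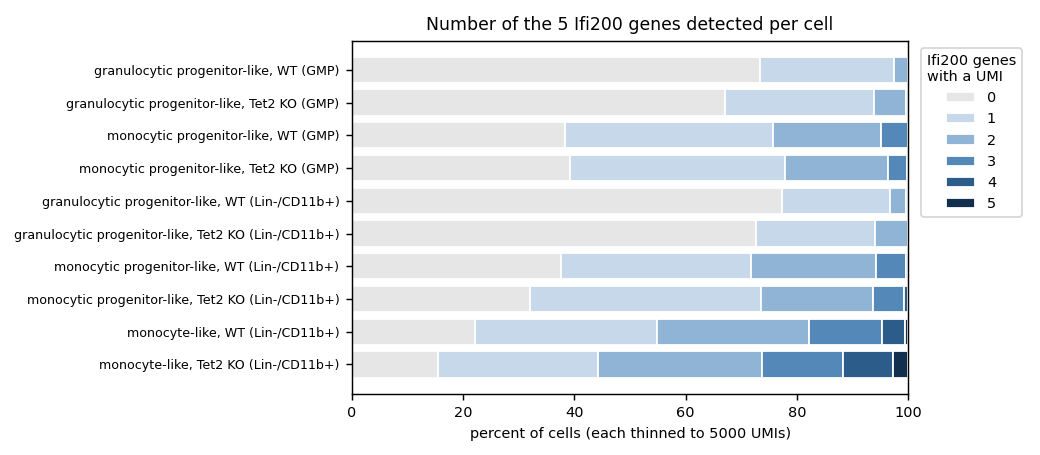
Share of cells, in percent, that carried 0 to 5 of the members after thinning to 5000 UMIs, by library and cell type, in stacked bars. Monocyte-like cells carry more members per cell than monocytic progenitor-like cells, and of the types drawn granulocytic progenitor-like cells carry fewest.

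In granulocytic progenitors of the GMP sort, the neighbouring branch, Ifi203, Ifi209 and Mndal were all higher in the Tet2 KO. The sum was 60.0 CPM in WT and 90.6 CPM in Tet2 KO, a log2 ratio of 0.59 (0.46 to 0.73). Ifi209 was 5.36 and 10.5 CPM, a log2 ratio of 0.97 (0.53 to 1.44), opposite to that in monocytic progenitors, and only 0.654% of the genes tested were at least as high. It was the 1 member of 4 tested past the fold, which 1.96% of 10856 genes passed as higher and 2.78% as lower. On CPM + 10 it was 1.34-fold higher and no longer passed. Ifi203 had 19.3 and 28.4 CPM (log2 0.56, 0.31 to 0.81) and Mndal 34.2 and 50.2 CPM (log2 0.55, 0.37 to 0.74). In the Lin-/CD11b+ sort Mndal was again higher, at 33.8 and 51.9 CPM, a log2 ratio of 0.62 (0.27 to 0.97), and was 1 of 3 tested members past a fold that 5.96% of genes passed as higher and 3.60% as lower, a call that ended on CPM + 10 at 1.41-fold. Ifi209 there was 4.11 and 4.28 CPM on 29 UMIs (log2 0.06, -1.10 to 1.22), so its GMP-sort difference was not seen again, at an interval too wide to set the sorts apart.

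In monocyte-like cells, the next stage of the lineage, the sum was 415 CPM in WT and 501 CPM in Tet2 KO, a log2 ratio of 0.27 (0.18 to 0.36). The difference was widest in Ifi204, which had 40.5 and 72.8 CPM, a log2 ratio of 0.85 (0.58 to 1.12), and was found in 27.7% of WT and 39.97% of Tet2 KO cells. It was the 1 of 5 tested members past the fold, which 7.89% of 9821 genes passed as higher and 3.57% as lower. Ifi203, Mndal and Ifi207 were higher by log2 0.33, 0.30 and 0.35. Ifi209 alone was lower, at 107 and 95.4 CPM, with an interval that reached 0 (log2 -0.17, -0.35 to 0.01). In Tet2 KO cells the step from monocytic progenitor to monocyte was 8.17-fold for Ifi204 and 17.1-fold for Ifi207.

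Elsewhere the members were mostly higher or level in the Tet2 KO. In dendritic-like cells Ifi209 had 78.5 and 60.4 CPM (log2 -0.38, -0.73 to -0.02), the direction it had in monocytic progenitors, while Ifi207 had 18.5 and 30.02 CPM and passed the fold as 1 of 5 tested members, as did 7.57% of genes, with 7.29% lower. In HSPC-like cells Ifi203 had 103 and 128 CPM (log2 0.30, 0.04 to 0.57), Mndal had 108 and 103 CPM, and none of the 3 tested members passed a fold that 8.71% of genes passed as higher and 4.95% as lower. In neutrophil-like and lymphoid-like cells the whole gene set was displaced, with median log2 ratios over all genes of 0.31 and 0.45, so their members are best read against those medians. All 5 members passed the fold as higher in neutrophil-like cells, where 26.5% of genes did and 3.83% passed as lower, and Ifi209 had 4.77 and 21.9 CPM, a log2 ratio of 2.20 (1.02 to 3.60) on 46 UMIs. In lymphoid-like cells 3 of 5 members passed, where 36.3% of genes did and 1.9% passed as lower, and Ifi204 had 3.08 and 20.3 CPM, a log2 ratio of 2.72 (1.72 to 3.91). Basophil-like cells had few counts of the members. In the GMP sort 1 of 2 tested members, Ifi203 with 13.2 and 23.9 CPM, passed the fold as higher, as did 5.59% of genes with 9.75% lower, and in the other sort 0 of 2 passed, where 12.1% of genes were higher and 9.63% lower. In the early Mpo+ progenitors Ifi209 had 7.86 and 15.6 CPM in the GMP sort and 4.44 and 7.72 CPM in the other, past the fold in both as 1 of 3 tested members, with intervals that included 0. Of all genes 6.38% and 10.4% passed it there as higher, and 9.26% and 6.24% as lower. On CPM + 10 the fold was passed by 3 members in neutrophil-like cells, by 2 in lymphoid-like cells and by none in dendritic-like, basophil-like and early Mpo+ cells, whereas Ifi204 in monocyte-like cells still passed it at 1.64-fold.

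The other PYHIN genes, relatives of the members on the same chromosome, were read in the same way. Of the 10 listed, 7 were in the count matrix, and in monocytic progenitors Ifi211 and Aim2 alone had at least 100 UMIs. Ifi211, which lies between Mndal and Ifi203 and carries the C7T stretch, had 17.9 CPM in WT and 25.7 CPM in Tet2 KO of the GMP sort (log2 0.52, 0.21 to 0.83) and 20.02 and 24.3 CPM in the other sort (log2 0.28, -0.17 to 0.74). In WT monocytic progenitors Ifi211 was 12.6-fold (7.26 to 23.8) its granulocytic level in the GMP sort. In the other sort it was 17.0-fold (6.36 to 64.2). Both intervals overlapped those of Ifi209, and the folds rest on 14 and 4 UMIs in granulocytic progenitors. The 3′ words of Ifi211 are shared with other genes to 77.4%, so its counts are uncertain. Ifi214 was the 1 of 3 tested relatives past the fold in the GMP sort, lower on 34 UMIs, and 0 of 2 passed in the other sort. Of all genes tested 3.37% passed as lower and 2.23% as higher in the GMP sort, and 3.44% and 6.21% in the other. Aim2, the inflammasome sensor, had 24.8 and 22.4 CPM in the GMP sort and 24.9 and 22.4 CPM in the other. In monocyte-like cells 7.89% of all genes passed the fold as higher and 3.57% as lower. There 3 of 6 tested relatives passed it as higher: Ifi205 (3.05 and 15.9 CPM), Ifi206 (2.77 and 10.7 CPM) and Ifi213 (1.11 and 6.04 CPM). Ifi211 (87.1 and 87.4 CPM), Aim2 (33.0 and 29.5 CPM) and Ifi214 (3.88 and 3.23 CPM) did not, and Ifi208 was too sparse to test. Of the 3′ words of Ifi205, Ifi206 and Ifi213, 79.2%, 26.0% and 18.7% also occurred in another gene, so their counts are uncertain too.

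Fewer genes of the interferon pathway passed the fold in monocytic progenitors than in monocyte-like cells, a contrast that was not tested. Of the interferon-stimulated genes, effectors induced by type I interferon, 2 of 14 tested passed the fold as higher in the GMP sort and 3 of 12 in the Lin-/CD11b+ sort, with none lower, beside 2.23% and 6.21% of all genes. On CPM + 10 these counts became 0 and 1. Their median log2 ratios were 0.22 and 0.28 against -0.01 and 0.04 over all genes. In monocyte-like cells 13 of 21 passed as higher, beside 7.89% of all genes, with a median of 0.83 against 0.05 over all genes. Of the interferon-induced GTPases, which act on pathogen-containing vacuoles, 1 of 7 passed in each progenitor comparison, with medians of 0.20 and 0.33, and 7 of 10 in monocyte-like cells, with a median of 1.03. The receptor and signalling genes had 0 of 14 past the fold in the GMP sort, 3 of 14 higher in the Lin-/CD11b+ sort and 5 higher and 1 lower of 14 in monocyte-like cells. The DNA and RNA sensing genes, which detect foreign or misplaced nucleic acid, had 1 of 11 higher in each progenitor comparison and 4 of 12 in monocyte-like cells. The lists were chosen with results of these data known.

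By the rule for names, the gene with the lowest ratio of the signalling list was Irf8, a regulator of monocytic and dendritic fate. Irf8 was lower, as Ifi209 was, with 581 and 443 CPM (log2 -0.39, -0.45 to -0.33) and 561 and 398 CPM (log2 -0.49, -0.59 to -0.40). In granulocytic progenitors of the GMP sort Irf8 had 54.9 and 81.5 CPM, the direction of Ifi209 there. In monocyte-like cells Irf8 had 663 and 376 CPM where Ifi209 had 107 and 95.4 CPM. Whether Irf8 and Ifi209 are linked was not tested. Among the GTPases, Igtp had 5.02 and 6.86 CPM and Gbp3 had 41.7 and 29.0 CPM (log2 -0.52, -0.75 to -0.29), a lower value that was smaller in the other sort at 34.6 and 31.6 CPM. Of the stimulated genes, Xaf1 had 5.88 and 10.3 CPM and Oas1a, an activator of RNase L, had 10.6 and 10.5 CPM. Of the sensing genes, Casp1, the inflammasome protease, had 48.6 and 56.3 CPM and Mb21d1, the gene of the DNA sensor cGAS, had 22.6 and 19.98 CPM. Of 9 other genes of the count matrix within 1000000 bases of the members, Dusp23 was the 1 tested, at 17.5 and 16.6 CPM.

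**Figure D5:**
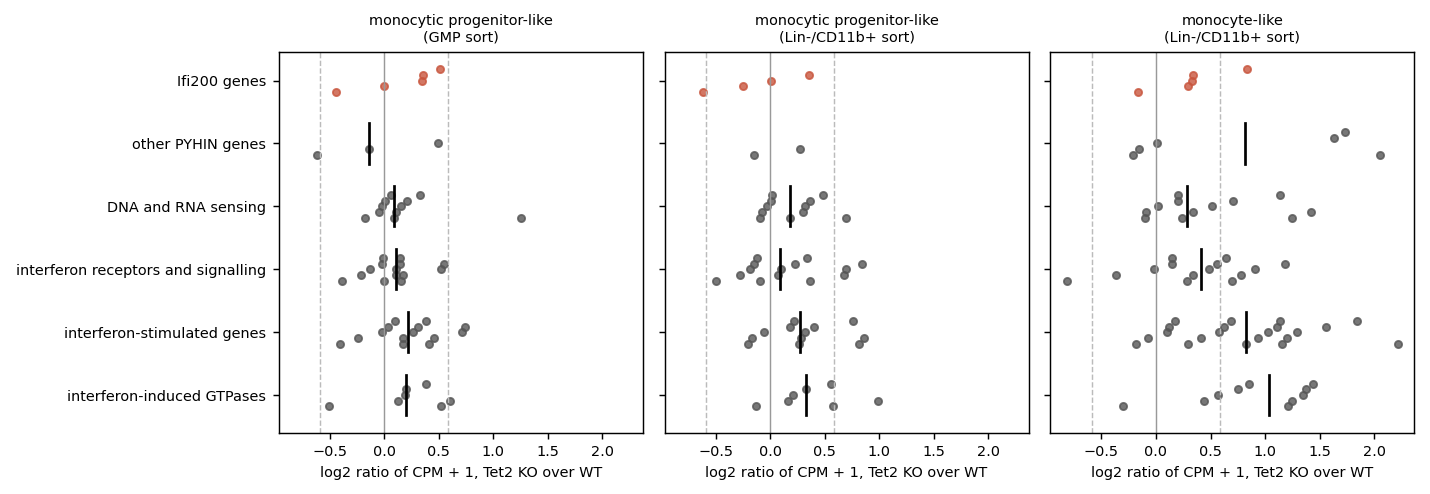
Log2 ratio of Tet2 KO over WT on CPM + 1 for each tested gene of the members and of the lists, in monocytic progenitor-like cells of each sort and in monocyte-like cells, with bars at list medians, a solid line at 0 and dashed lines at 1.5-fold. The medians of the interferon-stimulated genes and GTPases lie at 0.20 to 0.33 in monocytic progenitor-like cells and at 0.83 to 1.03 in monocyte-like cells.

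Over the 26 combinations of library and cell type with at least 50 cells, the genes whose log2(CPM + 10) most resembled that of the summed members among 9076 genes compared were Tmem109 (r = 0.93), Plekho1, Tpm4, Il6st and Ifnar2 (each r = 0.92). Ifnar2 is a chain of the type I interferon receptor and Il6st the signalling chain of the interleukin-6 receptor family. Tmem109 had 30.5 CPM in WT monocytic progenitors of the GMP sort, 4.76 CPM in granulocytic progenitors and 76.9 CPM in monocyte-like cells. Among the members themselves, Mndal and Ifi203 were most alike (r = 0.94), followed by Ifi207 and Ifi204 (r = 0.87). Ifi209 stood between these pairs, with r from 0.60 for Ifi203 to 0.69 for Ifi204. These values are descriptions, since the combinations share libraries, mice and depth.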

How the data were processed

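Single-cell RNA-seq was made from sorted bone marrow on the 10x Chromium platform. The kit is given as v2 in the protocol and otherwise in the design text. The authors deposited raw UMI counts per gene and cell with a cell table. Per the submitters' processing notes Cell Ranger 3.1.0, Seurat and mm10 were used, and which annotation the counts used was not given in the sources used here. In its methods the study sets a limit of 5% mitochondrial UMIs, yet the deposited counts hold 116, 180, 44 and 73 cells (WT GMP, Tet2 KO GMP, WT Lin-/CD11b+, Tet2 KO Lin-/CD11b+) at or above it, and these were kept, as were possible doublets.

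Cells were gated on marker genes fixed in a list, which left 1475 cells (16.4%) in no gate. The members and lists were chosen with earlier results of these data known, and the gate limits, the bins, the alternatives on them and CPM + 10 for the members were set after seeing the data. Counts were summed per library and gate and divided by all UMIs to give CPM, with exact Poisson intervals. Ratios have exact conditional binomial intervals and shares exact Clopper-Pearson intervals, at 95%. Without replicates no test was run, and a difference of 1.5-fold on CPM + 1 was counted among genes with at least 20 UMIs over both libraries. Shares were also computed in cells thinned to 5000 UMIs. Named genes were the members, the other PYHIN genes, the highest and lowest ratio with at least 100 UMIs in each list, the 5 genes most like the summed members, Tet2 and the gate markers. The counts of Ifi202b, Mnda and Pyhin1 were not analysed here. The result for 1 gene named by this rule is not reported here. Alternatives were TMM factors (edgeR 4.0.16), means over cells, gates on thinned cells, Leiden clusters, Scrublet and mitochondrial limits, other count minimums, CPM + 10, a monocytic score of at least 8, no Cebpe limit and no cells with Gfi1 or Fcnb. Python 3.11.15, scipy 1.17.1, scanpy 1.11.5 and R 4.3.3 were used, and the scripts were checked on simulated data. Promoters came from RefSeq (GRCm38.p6), which gave 4 of the 5 members.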

Additional observations from a re-analysis of the deposited data

Results flagged for a closer look

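Some member ratios of Tet2 KO over WT lay on opposite sides of 0 in 2 cell types of the same sort, with counting intervals apart from 0 in each. None of these differences was tested, since each rests on 1 library per genotype. In the GMP sort the log2 ratio of Ifi209 was -0.45 in monocytic and 0.97 in granulocytic progenitors, a distance of 1.42. In the Lin-/CD11b+ sort Ifi209 was lower in the Tet2 KO in monocytic progenitors (-0.62) and dendritic-like cells (-0.38), and higher in neutrophil-like (2.20) and lymphoid-like cells (0.88). Monocytic progenitors lay 2.82 from neutrophil-like and 1.51 from lymphoid-like cells, and dendritic-like cells lay 2.57 and 1.26 from them. Mndal in that sort was at -0.25 in monocytic progenitors, which lay 0.87 from granulocytic progenitors (0.62), 0.55 from monocyte-like cells (0.30), 0.99 from neutrophil-like cells (0.74) and 0.56 from lymphoid-like cells (0.31). With TMM factors Mndal in lymphoid-like cells was at -0.14, the same side of 0 as in monocytic progenitors. Neutrophil-like and lymphoid-like cells had medians of 0.31 and 0.45 over all genes. In the GMP sort Mndal in monocytic progenitors was at -0.01.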

How the results depend on the processing

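No paired analysis was possible because each genotype and sort had 1 library, and for the same reason no replicate could be left out. The members had a log2 ratio in 49 combinations of gene, cell type and sort, and of 359 values under the alternatives 349 stayed within the counting interval, 9 moved beyond it and 1 changed sign where the interval had excluded 0. Values whose interval included 0, such as Mndal in the GMP sort and Ifi204 in the Lin-/CD11b+ sort, could take either sign and are not among the last. In monocytic progenitors Ifi209 stayed between -0.47 and -0.37 in the GMP sort and between -0.70 and -0.41 in the Lin-/CD11b+ sort under 10 alternatives, and Ifi203 between 0.29 and 0.45 and between 0.26 and 0.43. Mndal ranged from -0.08 to 0.08 and from -0.29 to -0.01, and Ifi204 from 0.30 to 0.68 and from -0.21 to 0.43.

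The summed ratio in monocytic progenitors of the GMP sort was -0.18 in the other sort and 0.18 without Ifi209. In the Lin-/CD11b+ sort it was -0.041 with gates on thinned cells, -0.023 in Leiden clusters and 0.0089 without Ifi209, a change of sign. In lymphoid-like cells TMM factors, which shift all genes by -0.45 there, gave 0.17 for the sum and -0.14 for Mndal, a change of sign, and the sum was 0.41 as a mean over cells, 0.29 in Leiden clusters and 0.83 without the highest Scrublet scores. In basophil-like cells of the Lin-/CD11b+ sort the sum was nearly level between the genotypes under the gates used above, on few counts. Its log2 ratio was -0.91 in Leiden clusters and -0.70 without the highest Scrublet scores. The log2 fold of the summed members in monocytic over granulocytic progenitors was 1.27 in Tet2 KO and 1.69 in Leiden clusters of the GMP sort, and 1.21 and 1.67 in the other. The difference in the share of cells with Ifi209 in the Lin-/CD11b+ sort was -9.72 percentage points after thinning.

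The number of genes past the fold follows the count minimum and the pseudocount by construction. In monocytic progenitors of the GMP sort 230 genes were higher and 347 lower, against 91 and 132 with at least 100 UMIs and 36 and 34 on CPM + 10. In the Lin-/CD11b+ sort 572 and 317 became 1104 and 774 with at least 1 UMI, 119 and 65 with at least 100 UMIs and 56 and 37 on CPM + 10. On CPM + 10 the counts past the fold became 0 in the GMP sort for the other PYHIN genes (lower), sensing genes, interferon-stimulated genes and GTPases, and in the Lin-/CD11b+ sort 0 for sensing, receptor and GTPase genes and 1 for the stimulated genes. With at least 1 UMI the stimulated genes had 4 higher in the GMP sort and 6 higher and 1 lower in the Lin-/CD11b+ sort, where the GTPases had 6 and the other PYHIN genes 1 higher. The cause of the moves other than these constructions was not tested.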
